A study of Rattus norvegicus with 12 samples.

Results

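The proteasome genes of the rat mesenteric lymph node were followed over 4 dietary groups of suckling pups. Members were all genes whose symbol in the array's annotation starts with Psma, Psmb, Psmc, Psmd, Psme, Psmf or Psmg followed by a number, together with Pomp and Adrm1. This gave 48 genes on 62 probe sets, out of 14217 genes on the array. A probe set is the group of short probes that measures 1 transcript, and the one with the highest mean signal over the 12 arrays stood for each gene. Psmc3ip and Psme3ip1 carry such symbols but encode no subunit, activator, inhibitor or assembly factor of the proteasome. The remaining 46 members were counted as having a proteasome role, of which Psmb8, Psmb9 and Psmb10 are the immunoproteasome genes.

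Mesenteric lymph nodes, which drain the gut, were taken from Wistar pups on day 21, and their messenger RNA was hybridized to Affymetrix Rat Genome 230 2.0 arrays, 1 per pup and 3 per group. The supplement was conjugated linoleic acid (CLA), a mix of 80% c9,t11 and 20% t10,c12 isomers. In group A the dams ate a diet with 1% CLA in the last 2 weeks of gestation and through suckling, so the pups received CLA in milk, for 5 weeks in all. In group B the dams ate the CLA diet in those 2 weeks of gestation only and the pups were given CLA daily by oral gavage while suckling, again 5 weeks in all. In group C the dams ate standard diet and the pups had the daily gavage for 3 weeks. In group D dams ate standard diet and no CLA was given. Groups A and B therefore shared the supplement before birth and differed in the route after it, and groups B and C shared the gavage, while nothing in the descriptions says that group A or group D was gavaged. The dams of the single pups are not given, so litter and group cannot be told apart.

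The proteasome is the barrel-shaped protease that degrades proteins marked with ubiquitin. Its 20S core is built of outer rings of alpha subunits, which gate the entry, and inner rings of beta subunits, some of which cut the chain, and the 19S cap holds a ring of ATPases that unfold substrates and a set of non-ATPase subunits that bind ubiquitin, remove it and hold the cap together. In lymphocytes and in cells exposed to interferon gamma, Psmb8, Psmb9 and Psmb10 replace the cutting subunits Psmb5, Psmb6 and Psmb7, which changes the peptides made for display on class I molecules.

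All values are signals on the log2 scale after quantile normalization of the 12 arrays. All 48 members lay above the array's own background, set by probe sets for spikes that had not been added, in all 12 arrays. The deposited median intensity ranged over the arrays from 19.3 to 38.5. Group D replicate 3 stood apart, with a mean correlation over probe sets of 0.931 with the arrays of group B and 0.930 with those of group C, against 0.896 with the other arrays of its own group. Smooth muscle genes differed within group D too, with a signal for Actg2, the smooth muscle gamma actin, of 11.41 and 11.17 in group D replicates 1 and 2 and 5.88 in replicate 3. The ratio of 3' to 5' signal of the hexokinase control, which is higher in more degraded or less fully copied RNA, was 2.84 to 4.96 in group A. In the other groups it was 1.62 to 3.24 (group B), 1.82 to 2.62 (group C) and 1.84 to 2.53 (group D). The lymph node markers Cd3e, a chain of the T cell receptor complex, and Ccl21, a chemokine of lymph node stroma, had mean signals of 10.25 and 11.96 over the arrays.

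Promoters of 44 members were found among the RefSeq sequences of rat assembly GRCr8, in windows of 250 bases before to 50 bases after the start of the gene. They were searched on both strands for 3 short motifs: TGACNNNGC, the core of the antioxidant response element, CCAAT, the CCAAT box, and GAAANNGAA, a core of the interferon-stimulated element. Of the 42 with a proteasome role, 8 (19%) held TGACNNNGC, 21 (50%) CCAAT and 10 (23.8%) GAAANNGAA, against 12.1%, 37.5% and 9.71% of all 33469 promoters. Of the 13 matched members that were lower in group A than in group D, 2 held TGACNNNGC, 7 held CCAAT and 1 held GAAANNGAA, against 6, 14 and 9 of the 29 others. The 100 bases just before the start are shown for 7 members, chosen because they hold a motif close to the start and stand for the genes that were lower in group A, those that were higher than in the gavaged groups, and those that interferon gamma induces. Letters in capitals are the motifs, on either strand, and all else is in lower case. In Psmb2 the CCAAT box and TGACNNNGC overlap by 1 base, and in Psmb10 neighbouring copies of GAAANNGAA overlap. A match is a match of letters and no more.
Psma5 (chr2:198584405-198584504, plus strand), lower in group A, 2 CCAAT boxes: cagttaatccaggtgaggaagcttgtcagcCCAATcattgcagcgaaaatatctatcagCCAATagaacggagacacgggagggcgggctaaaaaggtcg
Psma2 (chr17:55260442-55260541, minus strand), lower in group A, 1 CCAAT box: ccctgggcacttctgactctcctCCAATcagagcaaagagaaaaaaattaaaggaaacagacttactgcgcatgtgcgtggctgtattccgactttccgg
Psme4 (chr14:108706543-108706642, plus strand), lower in group A, TGACNNNGC on the opposite strand: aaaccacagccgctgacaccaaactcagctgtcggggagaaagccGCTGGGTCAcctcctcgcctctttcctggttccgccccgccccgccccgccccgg
Psmb2 (chr5:144254958-144255057, plus strand), higher in group A than in groups B and C, CCAAT and TGACNNNGC: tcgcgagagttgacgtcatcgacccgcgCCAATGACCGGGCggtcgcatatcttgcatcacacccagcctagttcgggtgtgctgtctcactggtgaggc
Psmb5 (chr15:32047380-32047479, minus strand), higher in group A than in groups B and C, TGACNNNGC: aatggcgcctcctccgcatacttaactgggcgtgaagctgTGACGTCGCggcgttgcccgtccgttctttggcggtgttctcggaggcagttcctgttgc
Psmb10 (chr19:50743293-50743392, minus strand), immunoproteasome, 3 copies of GAAANNGAA: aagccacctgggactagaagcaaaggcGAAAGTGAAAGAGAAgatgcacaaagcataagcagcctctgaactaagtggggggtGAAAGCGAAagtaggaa
Psme2 (chr15:33052752-33052851, minus strand), interferon-inducible activator, 1 copy of GAAANNGAA: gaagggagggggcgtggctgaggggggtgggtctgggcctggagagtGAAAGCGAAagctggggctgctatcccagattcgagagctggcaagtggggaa

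Proteasome genes were lower in group A than in group D for 16 of 48 members, among them subunits of the alpha ring, the ATPase ring and the non-ATPase part of the cap. These 16 are 33.3% of the members, where 12.0% of all genes were lower by the same call, an adjusted p under 0.05 in limma. The 1 member that was higher was Psmf1, an inhibitor of the core, which is 2.08% of the members where 16.0% of all genes were higher. At 2-fold or more, 7 members (14.6%) were lower, against 5.56% of all genes, and 0 were higher, against 2.63%. The shares over all genes include dim genes, while all 48 members lay above background. Without the dimmest 40% of probe sets, 1835 of 10454 genes were lower and 2640 higher. All 16 lower members were then kept with 1 more, and 4 members were higher. The median log2 difference was -0.18 over the 48 members and 0.15 over all genes, so under quantile normalization members are to be read against a general shift of 0.15. Without scaling between arrays the median over all genes was -0.02, where the members had -0.28. With a floor of 32 it was 0, where the members had -0.18, but that floor sets dim genes to the same value in both groups. Over the 7901 genes at or above the lowest mean signal of a member, the median under quantile normalization was 0.15. Centred on the 75th percentile in place of quantile normalization, the split was 15 lower and 4 higher, where 1694 and 2554 of all 14217 genes were called, and without scaling between arrays it was 12 lower and 0 higher, where 1371 and 262 were.

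The alpha ring held the largest differences among the core subunits, with 4 of 7 genes lower in group A, and all 7 had a difference below 0. Psma1 gave 7.87, 7.39 and 7.75 in group A, against 9.92, 9.57 and 9.25 in group D. The 3 arrays of group A lay more than 1 unit below every other array, those of group B (9.66, 9.53 and 9.63) and group C (9.84, 9.58 and 9.79) included. The log2 difference between groups A and D was -1.91 (SE 0.17, adjusted p = 1.26e-05). Psma4 gave 7.32, 7.36 and 7.37 in group A, 8.92, 8.84 and 8.94 for group B, 9.02, 8.88 and 8.95 for group C and 8.87, 8.75 and 8.92 for group D. It was the member with the lowest adjusted p, at a log2 difference of -1.50 (SE 0.09, adjusted p = 1.59e-06), and its 3 group A arrays lay within 0.1 of each other. Psma2 gave 8.99, 8.74 and 9.05 in group A, 9.67, 9.88 and 9.98 for group B, 9.94, 9.90 and 9.89 for group C and 10.08, 9.91 and 9.79 for group D. Its log2 difference was -0.998 (SE 0.12, adjusted p = 0.000114), and no array of group A overlapped with any other group. Lack of overlap was part of how called members were chosen for array values, here and below, so it adds no support. Psma5 followed at 9.10, 8.81 and 8.84 in group A, 9.82, 9.74 and 9.88 for group B, 9.71, 9.82 and 9.62 for group C and 10.01, 9.87 and 9.63 for group D, a log2 difference of -0.92 (SE 0.12, adjusted p = 0.000228), again with no overlap. The other alpha genes did not pass the test. Psma3 had a log2 difference of -0.38 (95% interval -0.80 to 0.03), Psma6 of -0.15 (95% interval -0.38 to 0.09) and Psma7 of -0.21 (95% interval -0.45 to 0.03), and the arrays of groups A and D overlapped in each.

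**Figure D1:**
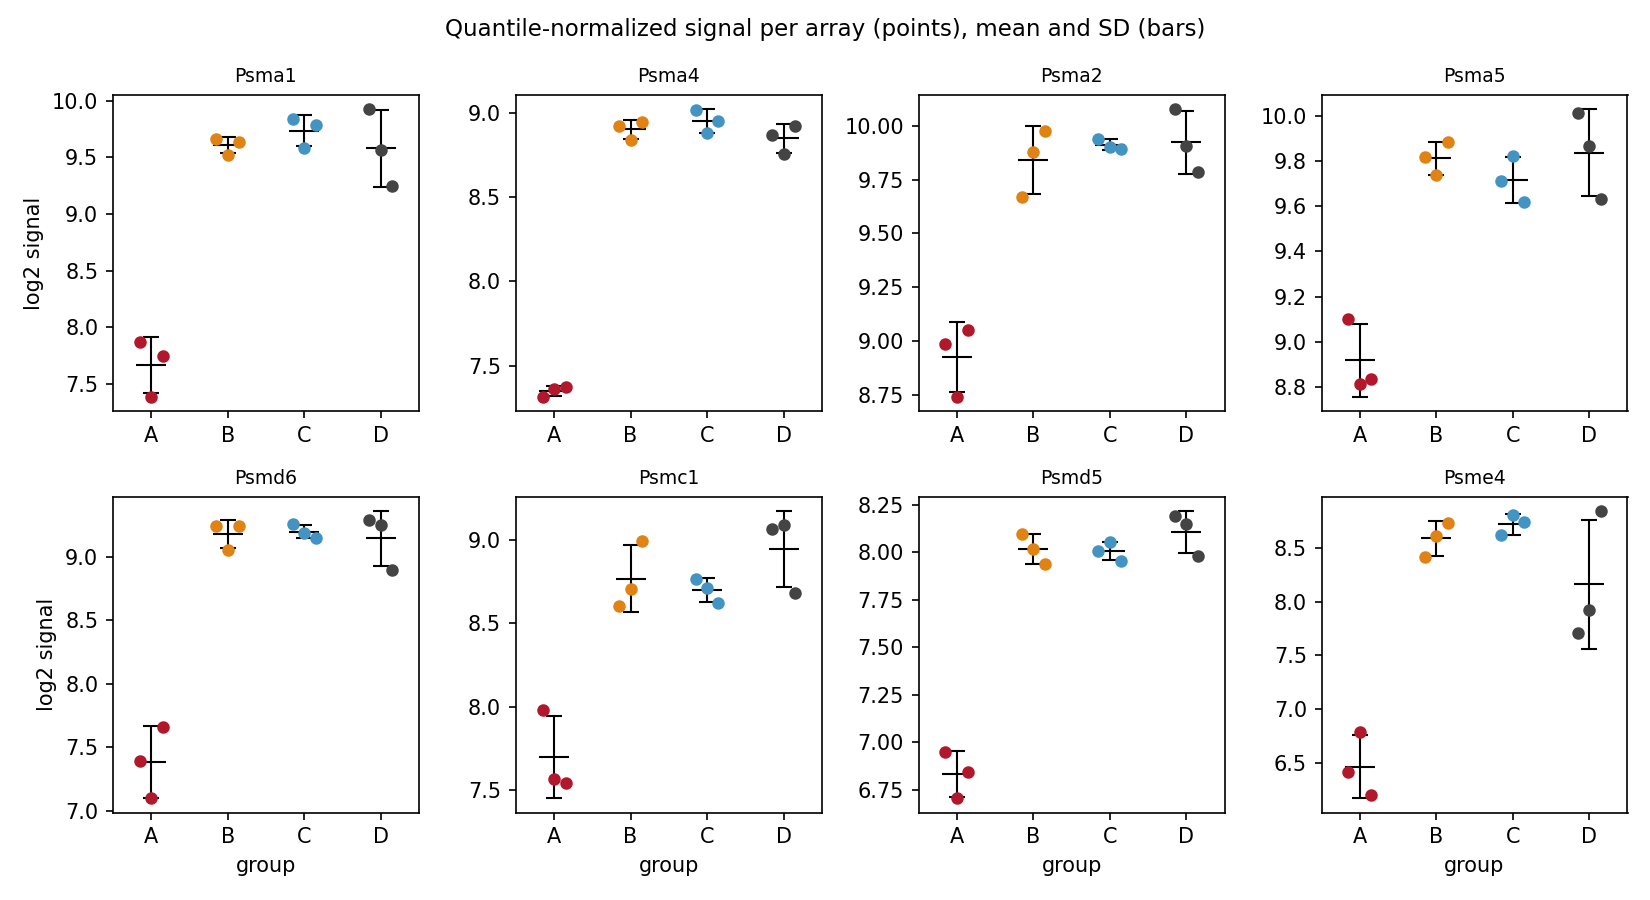
Log2 signal of 8 members that were lower in group A than in group D, with 1 point per array, groups A to D on the horizontal axis, and the mean and SD of each group as bars. In each panel the 3 arrays of group A lie below all arrays of the other groups. Lack of overlap was part of how members were chosen for array values, so it adds no support. Psme4 has the widest spread in group D, at 7.71, 7.92 and 8.84.

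The beta ring differed from this picture in its counts, with 1 of 6 genes lower in group A, although the difference between the rings was not tested. Psmb1, a structural beta subunit, had a log2 difference of -0.33 (SE 0.11, adjusted p = 0.0467), and this call was kept in 5 of 20 alternative settings, with adjusted p-values up to 0.476. With 1 array left out, it was kept only without group A replicate 1 and without group D replicate 3. The 2 measured genes of the cutting sites did not pass the test. Psmb5, the chymotrypsin-like site, gave 10.41, 10.21 and 10.34 in group A, 9.67, 9.64 and 9.53 for group B, 9.72, 9.75 and 9.52 for group C and 10.20, 10.22 and 9.68 for group D. The log2 difference between groups A and D was 0.28 (95% interval -0.02 to 0.58), and group A lay above groups B and C. Psmb7, the trypsin-like site, gave 10.00, 9.69 and 9.78 in group A, 9.44, 9.45 and 9.56 for group B, 9.44, 9.56 and 9.55 for group C and 9.85, 9.69 and 9.48 for group D. Its arrays in groups A and D overlapped, with a log2 difference of 0.15 (95% interval -0.10 to 0.40). Psmb6, the caspase-like site, was measured only by a probe set that the annotation also gives to another symbol, and is not reported by name. Psmb2, Psmb3 and Psmb4 had log2 differences of 0.20, 0.04 and -0.22, none past the test.

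None of the 3 immunoproteasome genes passed the test between groups A and D. Psmb8 gave 10.09, 9.87 and 9.93 in group A, 10.36, 9.86 and 10.02 for group B, 9.51, 10.22 and 9.38 for group C and 10.22, 9.94 and 10.26 for group D. The arrays overlapped in all groups, and the log2 difference between groups A and D was -0.18 (95% interval -0.60 to 0.25). Psmb9 gave 10.50, 10.41 and 10.48 in group A, 9.94, 9.67 and 10.00 for group B, 9.82, 10.12 and 9.85 for group C and 10.28, 9.77 and 10.22 for group D. All 3 group A arrays were above every other array, but with an adjusted p of 0.0856 the log2 difference of 0.37 (95% interval 0.07 to 0.68) did not pass. Psmb10 gave 9.53, 8.86 and 8.84 in group A, 9.23, 8.99 and 8.98 for group B, 9.09, 9.22 and 8.92 for group C and 9.52, 9.33 and 9.28 for group D. Its log2 difference was -0.30 (95% interval -0.67 to 0.07), and group A replicate 1 was as high as the highest array of group D. The promoters of Psmb8 and Psmb10 held GAAANNGAA and that of Psmb9 held none in the window searched.

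The ATPase ring of the 19S cap had 4 of 6 genes lower in group A, namely Psmc1, Psmc2, Psmc5 and Psmc6. Psmc1 gave 7.98, 7.57 and 7.54 in group A, 8.60, 8.71 and 8.99 for group B, 8.77, 8.71 and 8.62 for group C and 9.07, 9.09 and 8.68 for group D. Group A lay below all 9 other arrays, and the log2 difference from group D was -1.25 (SE 0.15, adjusted p = 0.000155). Psmc2 gave 9.62, 9.15 and 9.33 in group A, 10.16, 10.19 and 10.16 for group B, 10.17, 10.05 and 10.21 for group C and 10.40, 10.35 and 10.07 for group D. The groups did not overlap here either, with a log2 difference of -0.90 (SE 0.13, adjusted p = 0.000386). Psmc5 and Psmc6 had log2 differences of -1.02 and -0.83, both called and without overlap between groups A and D. Psmc3 and Psmc4, the remaining ATPases, had 0.02 (95% interval -0.33 to 0.38) and -0.07 (95% interval -0.43 to 0.30).

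Among the non-ATPase subunits of the cap, 5 of 12 were lower in group A. Psmd6, a subunit of the lid, had the second largest difference of all members at -1.76. It gave 7.39, 7.10 and 7.66 in group A, 9.24, 9.05 and 9.24 for group B, 9.25, 9.19 and 9.15 for group C and 9.29, 9.25 and 8.89 for group D. The 3 arrays of group A were more than 1 unit below all others, and the adjusted p against group D was 9.42e-06. Psmd14, the deubiquitinase that removes ubiquitin chains before degradation, gave 8.35, 8.02 and 8.30 in group A, 8.93, 9.07 and 9.10 for group B, 8.99, 9.04 and 9.26 for group C and 8.86, 8.96 and 8.77 for group D. It was lower in all 3 arrays of group A than in any other array, with a log2 difference from group D of -0.64 (SE 0.12, adjusted p = 0.00239). The scaffold subunit Psmd1, the lid subunit Psmd12 and the ubiquitin receptor Psmd4 had called differences of -0.91, -0.77 and -0.75. The calls of Psmd12 and Psmd4 were lost on leaving out replicate 2 of group A, or either of replicates 1 and 2 of group D, and that of Psmd4 also on leaving out replicate 3 of group A, with adjusted p-values over all alternatives up to 0.0836 and 0.110. For Psmd4 the arrays overlapped, since group A replicate 1 at 8.35 was above group D replicate 3 at 8.29. Adrm1, another ubiquitin receptor of the cap, gave 6.62, 6.67 and 6.43 in group A, 5.26, 5.11 and 5.32 for group B, 5.71, 5.54 and 5.69 for group C and 6.14, 6.22 and 5.82 for group D. Group A was above all other arrays, yet the log2 difference from group D of 0.51 (95% interval 0.14 to 0.89) had an adjusted p of 0.0557 and was not called. Psmd2, Psmd3, Psmd7, Psmd8, Psmd11 and Psmd13 ranged in log2 difference from -0.19 to 0.38 with none past the test.

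Of the activators that cap the core in place of 19S, Psme4, which encodes the large nuclear activator, was lower in group A. It gave 6.41, 6.78 and 6.20 in group A, 8.42, 8.61 and 8.74 for group B, 8.62, 8.81 and 8.74 for group C and 7.71, 7.92 and 8.84 for group D. Group A was below every other array, and group D replicate 3 was about 1 unit above the other arrays of its group. The log2 difference between groups A and D was -1.70 (SE 0.24, adjusted p = 0.000438). Psme1 and Psme2 encode the ring that interferon gamma induces. Psme1 gave 11.23, 10.79 and 10.88 in group A, 11.14, 10.94 and 10.99 for group B, 10.83, 11.05 and 10.87 for group C and 11.16, 10.99 and 11.01 for group D. Psme2 gave 10.46, 10.15 and 10.31 in group A, 10.05, 9.94 and 10.09 for group B, 9.90, 10.08 and 9.82 for group C and 10.34, 10.15 and 10.01 for group D. Both overlapped between groups A and D, with log2 differences of -0.08 (95% interval -0.35 to 0.18) and 0.14 (95% interval -0.11 to 0.40). Psme3, the third gene of this kind, shared its probe sets with other symbols and is not reported by name. Psmf1 gave 8.76, 8.67 and 8.63 in group A, 8.01, 7.57 and 7.90 for group B, 7.77, 7.60 and 7.50 for group C and 8.49, 8.13 and 7.91 for group D. All arrays of group A were above those of the other groups, and the log2 difference from group D was 0.51 (SE 0.16, adjusted p = 0.038), a call kept in 9 of 20 alternative settings, with adjusted p-values up to 0.334. It was lost on leaving out any single array of group A, replicate 2 or 3 of group D, replicate 3 of group B or replicate 2 of group C.

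Assembly factors guide subunits into place and then leave. Of 8 such genes, only Psmd5, which escorts ATPases of the 19S base, passed the test, with 6.95, 6.71 and 6.84 in group A, 8.10, 8.02 and 7.94 for group B, 8.01, 8.05 and 7.96 for group C and 8.19, 8.15 and 7.98 for group D. Its group A arrays lay about 1 unit below all others, and the log2 difference from group D was -1.28 (SE 0.11, adjusted p = 1.26e-05). Pomp, the maturation factor of the core, gave 10.01, 10.15 and 10.11 in group A, 9.92, 9.82 and 10.14 for group B, 9.88, 9.81 and 9.91 for group C and 10.22, 10.12 and 9.80 for group D. Here all groups overlapped with group D, at a log2 difference from it of 0.04 (95% interval -0.22 to 0.30) for group A. Psmg1 had -0.77 (95% interval -1.32 to -0.21) at an adjusted p of 0.0509, and its partner in the first steps of the alpha ring, Psmg2, had -0.35 (95% interval -0.65 to -0.06) at 0.0882. Psmg3, Psmg4, Psmd9 and Psmd10 had -0.16, 0.61, 0.47 and -0.18, none past the test.

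**Figure D2:**
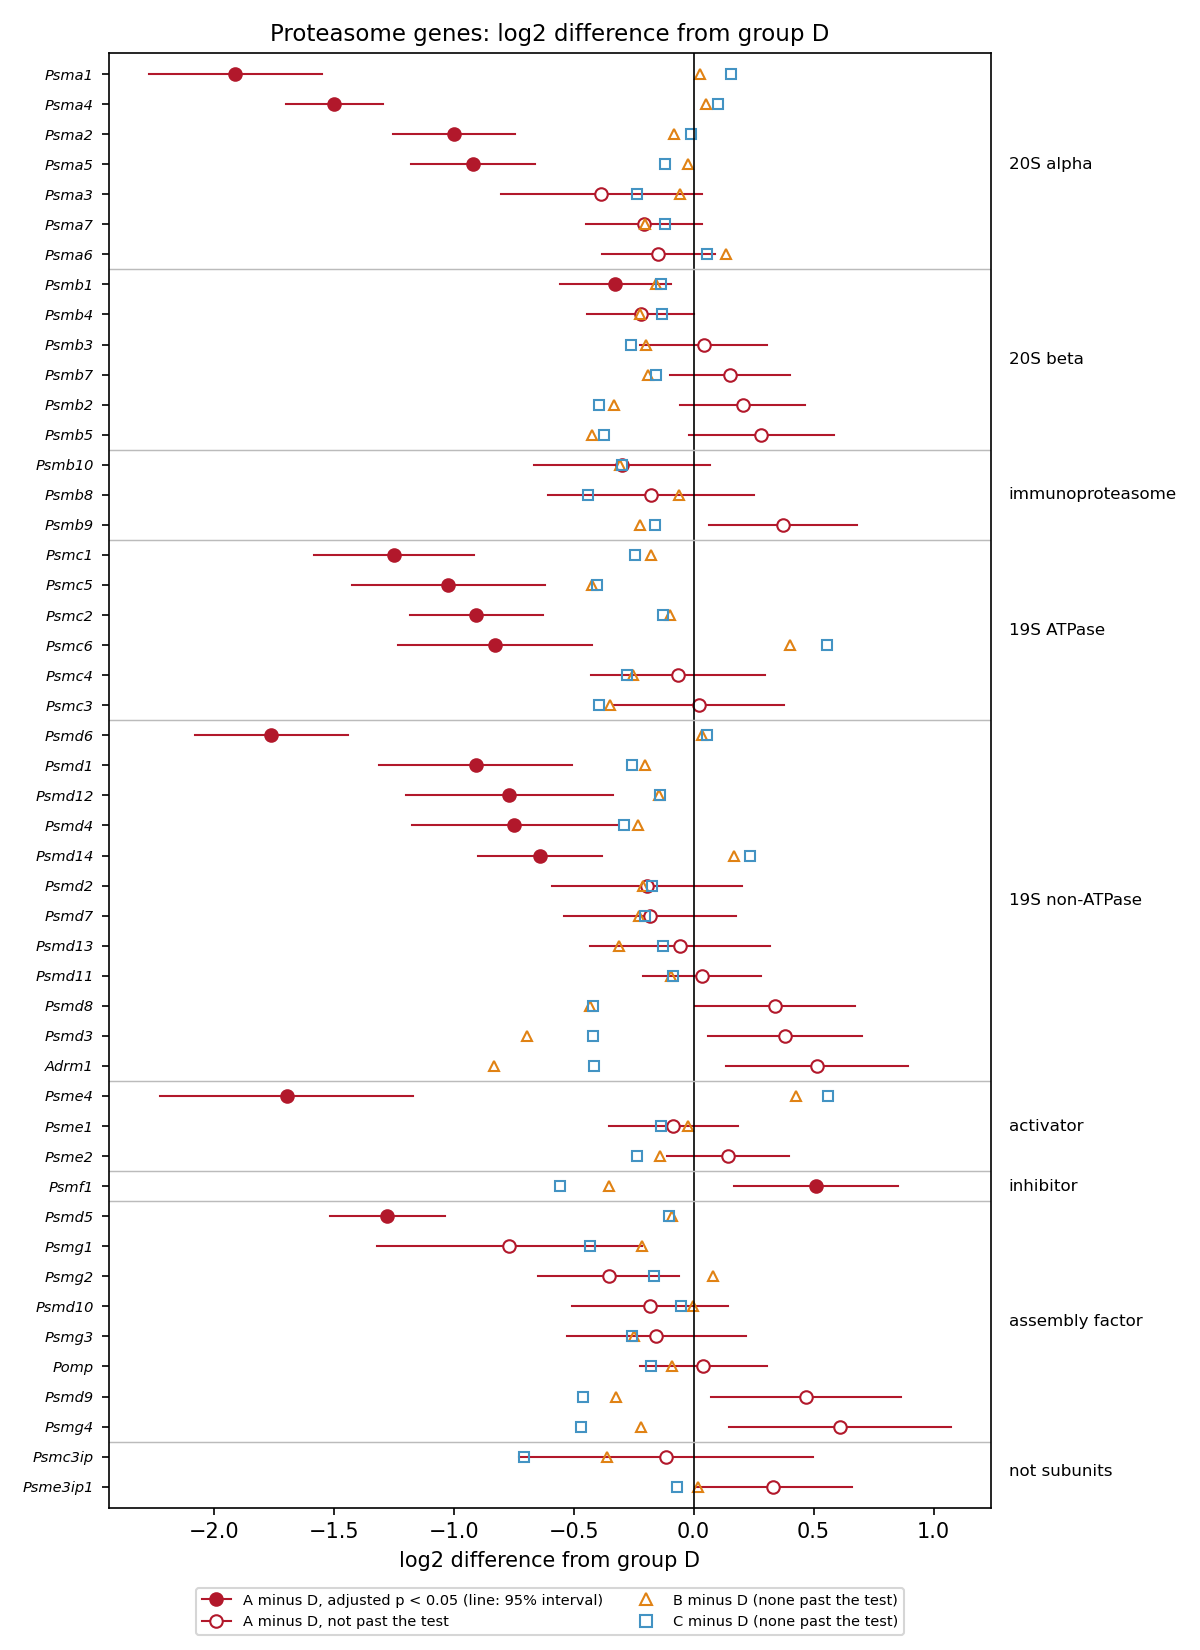
Log2 difference from group D for each of the 48 members, grouped by role, with group A as circles (filled where the adjusted p is under 0.05, line: 95% interval), group B as triangles and group C as squares. The filled circles to the left are 16 genes, from Psma1 at -1.91 to Psmb1 at -0.33, and the filled circle to the right is Psmf1 at 0.51. The 3 comparisons share the arrays of group D.

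Several members had more than 1 probe set, and these did not always give the same answer. For Psme4 the 3 probe sets had log2 differences between groups A and D of -3.10 (1387345_at, adjusted p = 1.8e-05), -1.70 (1368817_at) and -0.05 (1368818_at, adjusted p = 0.908). The last overlapped between the groups, with 6.18, 6.34 and 6.49 in group A and 5.90, 6.35 and 6.93 in group D. For Psmd14 the differences were -0.64 (1383429_at), -1.64 (1394082_at, adjusted p = 0.00041) and -1.06 (1386073_at, adjusted p = 0.138). For Psmc6 they were -0.83 (1384323_at, called), -0.37 (1379850_at, adjusted p = 0.0946) and 0.27 (1382385_at, adjusted p = 0.624), so the sign was not the same. Psmd7 was not called on its brightest probe set at -0.18 (1389245_at), but its dimmer one was lower in group A at -0.75 (1379322_at, adjusted p = 0.0389). Psma3 was not called at -0.38, while a brighter probe set annotated to Psma3 and a second symbol had 8.54, 8.77 and 9.18 in group A against 10.17, 10.16 and 10.02 in group D. That probe set names no single gene and stands outside the counts. Against groups B and C, Psmd11 was not called at 0.13 (1374712_at) but was higher at 0.53 on another probe set (1376069_at, adjusted p = 0.0161). Psmd9 was higher at 0.86 (1368184_at) but had 0.02 on its dimmer one (1397686_at, adjusted p = 0.978). Probe sets that were below background on some or all arrays (of Psmb5, Psmc4, Psmd11 and Psme1) passed no test. Between groups A and D, 1394006_at of Psme1 had 0.91 against -0.08 on the brightest probe set. For Psmd11, 1380252_at had -0.20 against 0.04, so these signs were opposite too.

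**Figure D3:**
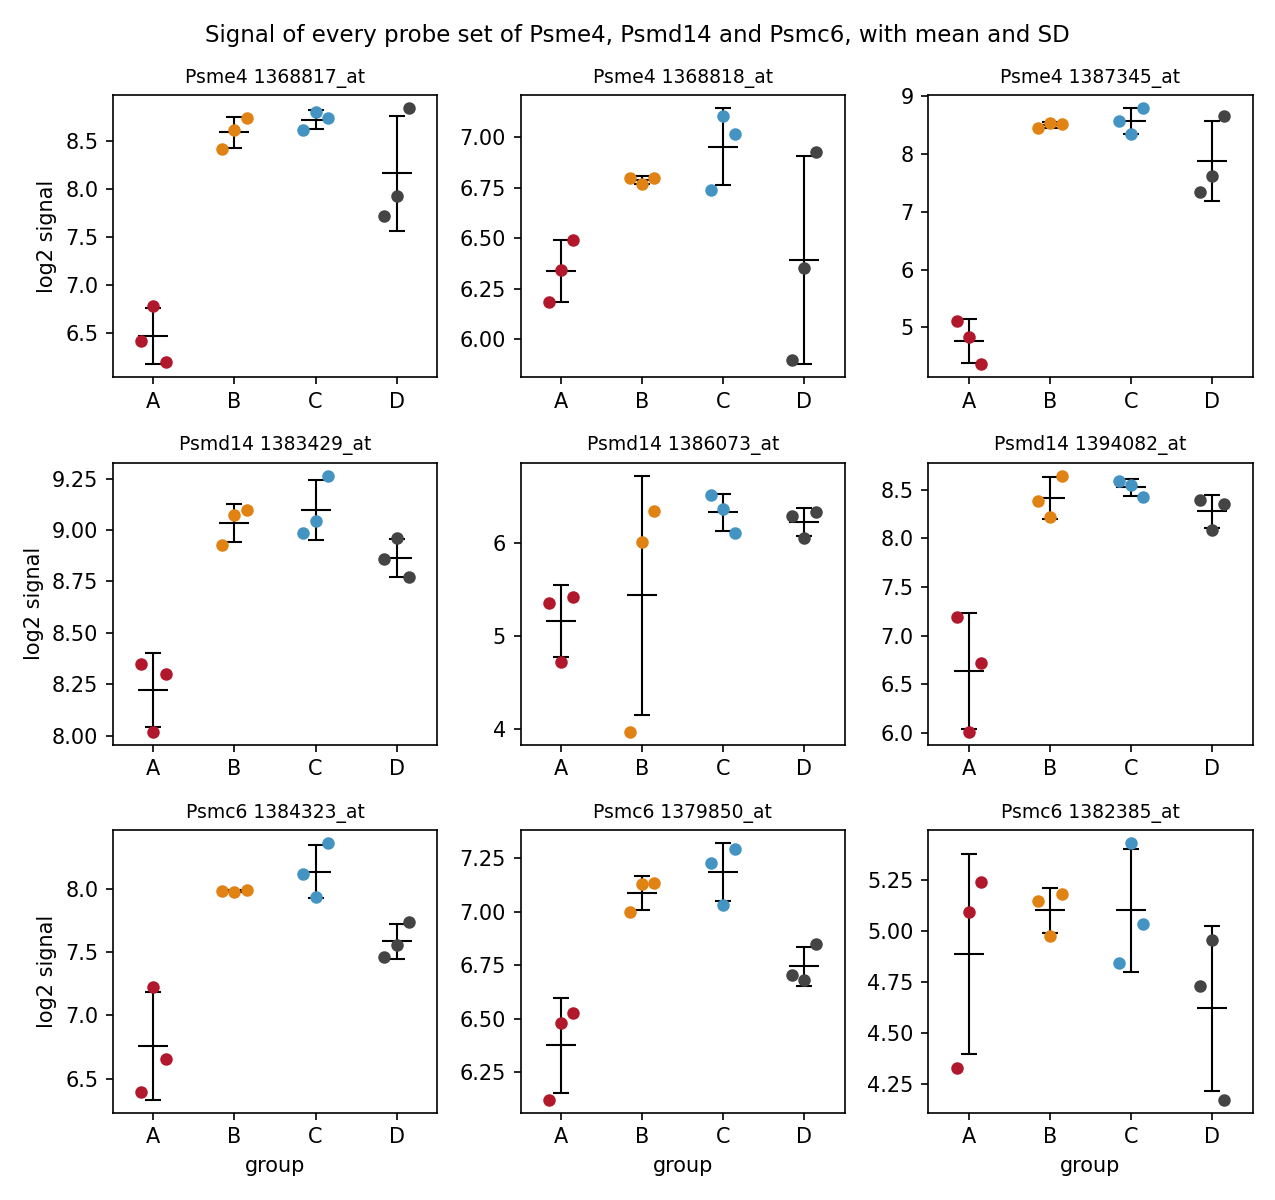
Log2 signal of every probe set of Psme4, Psmd14 and Psmc6, with 1 point per array, groups A to D on the horizontal axis, and mean and SD as bars. Group A is apart from group D on 1387345_at and 1368817_at of Psme4 (log2 differences of -3.10 and -1.70) but not on 1368818_at (-0.05). Each panel has its own vertical scale, which does not start at 0.

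In groups B and C no member passed the test against group D. In group B 0 members were lower and 0 higher in limma, against 0.0141% and 0.00703% of all genes, and at an unadjusted p under 0.05 there were 7 lower and 0 higher, where 10.5% and 6.47% of all genes reached that level. In group C 0 were lower and 0 higher, against 0.0352% and 0.00703% of all genes, with 12 lower and 2 higher at an unadjusted p under 0.05, where 12.2% and 7.42% of all genes did so. The median log2 difference of the members was -0.19 (all genes -0.11) in group B, and for group C it was -0.18 (all genes -0.12). Psma1, Psma4, Psmd6 and Psmd5 had differences from group D of 0.03, 0.05, 0.04 and -0.09 in group B. In group C the same genes had 0.16, 0.10, 0.05 and -0.10. Between the gavaged groups, 0 members were lower and 0 higher in group B than in group C, with 0% of all genes called in each direction. At an unadjusted p under 0.05, 1 member (of 48) was lower and 0 were higher, where 1.93% and 1.96% of all genes reached that level, so the members were at the background.

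The counts of 0 against group D rest on its replicate 3. Without it, 13 members (27.1%) were lower and 1 (2.08%) higher in group B than in group D, where 12.8% and 7.15% of all genes were. In group C 12 members (25%) were lower and 2 (4.17%) higher, where 15.0% and 8.03% of all genes were. The member with the lowest adjusted p in group B was then Psmd3, a lid subunit, at a log2 difference of -0.87 (adjusted p = 0.000274), and in group C it was Psmb2, at -0.54 (adjusted p = 0.00129). Psmb5 had -0.60 in group B, with -0.55 in group C, and Adrm1 had -0.96 in group B, with -0.54 in group C. Psme4 was higher, by 0.77 in group B, with 0.91 in group C. The smooth muscle gene Actg2 had 4.45 to 5.06 in group B and 11.41 and 11.17 in the 2 remaining arrays of group D, and group C had 2.86 to 6.61. The part of this difference in Actg2 in the counts was not tested, and in whole nodes fewer cells of a type and less RNA per cell cannot be told apart.

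Set against the gavaged groups, group A had both lower and higher members, and the cap held both. Of the alpha ring genes 4 were lower and 0 higher, of the ATPases 4 lower and 1 (Psmc3) higher, of the non-ATPase subunits 5 lower and 3 (Psmd3, Psmd8 and Adrm1) higher, and of the 6 beta genes 0 lower and 3 higher. In group A 15 members (31.2%) were lower than in groups B and C together, against 16.9% of all genes, and 13 (27.1%) were higher, against 31.6% of all genes. At 2-fold or more 7 (14.6%) were lower and 1 (2.08%), Adrm1, higher, against 8.30% and 10.7%. Without the dimmest 40% of probe sets, 2466 of 10454 genes were lower and 4647 higher. The 15 lower members were then kept with 2 more, and the 13 higher ones with 1 more. The median of the members was -0.003 and that of all genes 0.32. Under quantile normalization a difference of about 0.32 was thus that of the typical gene. Over the 7901 genes at or above the lowest mean signal of a member, the median was 0.27. A floor of 32 gave a median of 0 over all genes, as it sets dim genes to the same value in both groups. Without scaling between arrays the split was 6 lower and 22 higher, where 1003 and 5773 of 14217 genes were called, and the median of all genes was then 0.73.

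The genes that were lower in this comparison were those named against group D apart from Psmb1. This comparison takes no mean from group D, but it uses the same 3 arrays of group A and the same estimate of the spread. The repeated calls are therefore not independent evidence. The log2 difference from groups B and C was -2.19 (SE 0.21, adjusted p = 8.87e-06) for Psme4, -2.00 (SE 0.14, adjusted p = 1.14e-06) for Psma1, -1.80 (SE 0.13, adjusted p = 9.55e-07) for Psmd6 and -1.57 (SE 0.08, adjusted p = 1.56e-07) for Psma4. Every array of group A was below every array of groups B and C for these 4, which was part of how genes were chosen. The largest rise was that of Adrm1, at 1.14 (SE 0.15, adjusted p = 9.67e-05). Psmf1 at 0.96, the assembly factors Psmg4 at 0.95 and Psmd9 at 0.86, and the cap subunits Psmd3 at 0.94 and Psmd8 at 0.77 followed. In the core, the higher genes were Psmb5 at 0.68, Psmb2 at 0.57 and Psmb7 at 0.32, while 0 of the 7 alpha genes were higher. Psmb9 was higher at 0.57 with no overlap of arrays, while Psmb8 and Psmb10 had 0.07 (95% interval -0.30 to 0.44) and 0.00 (95% interval -0.31 to 0.32). The calls of Psmd4, Psmc3 and Psme3ip1 were lost on leaving out any of several single arrays, with adjusted p-values over all alternatives up to 0.929, 0.222 and 0.212. Leaving out replicate 2 of group A also lost those of Psmd12 and Psmc5, replicate 3 of group A those of Psmc5 and Psme2, and replicate 1 of group A those of Psmb7 and Psme2. Psme2 at 0.33 and Psmb7 lay at the size of the median of all genes under quantile normalization.

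**Figure D4:**
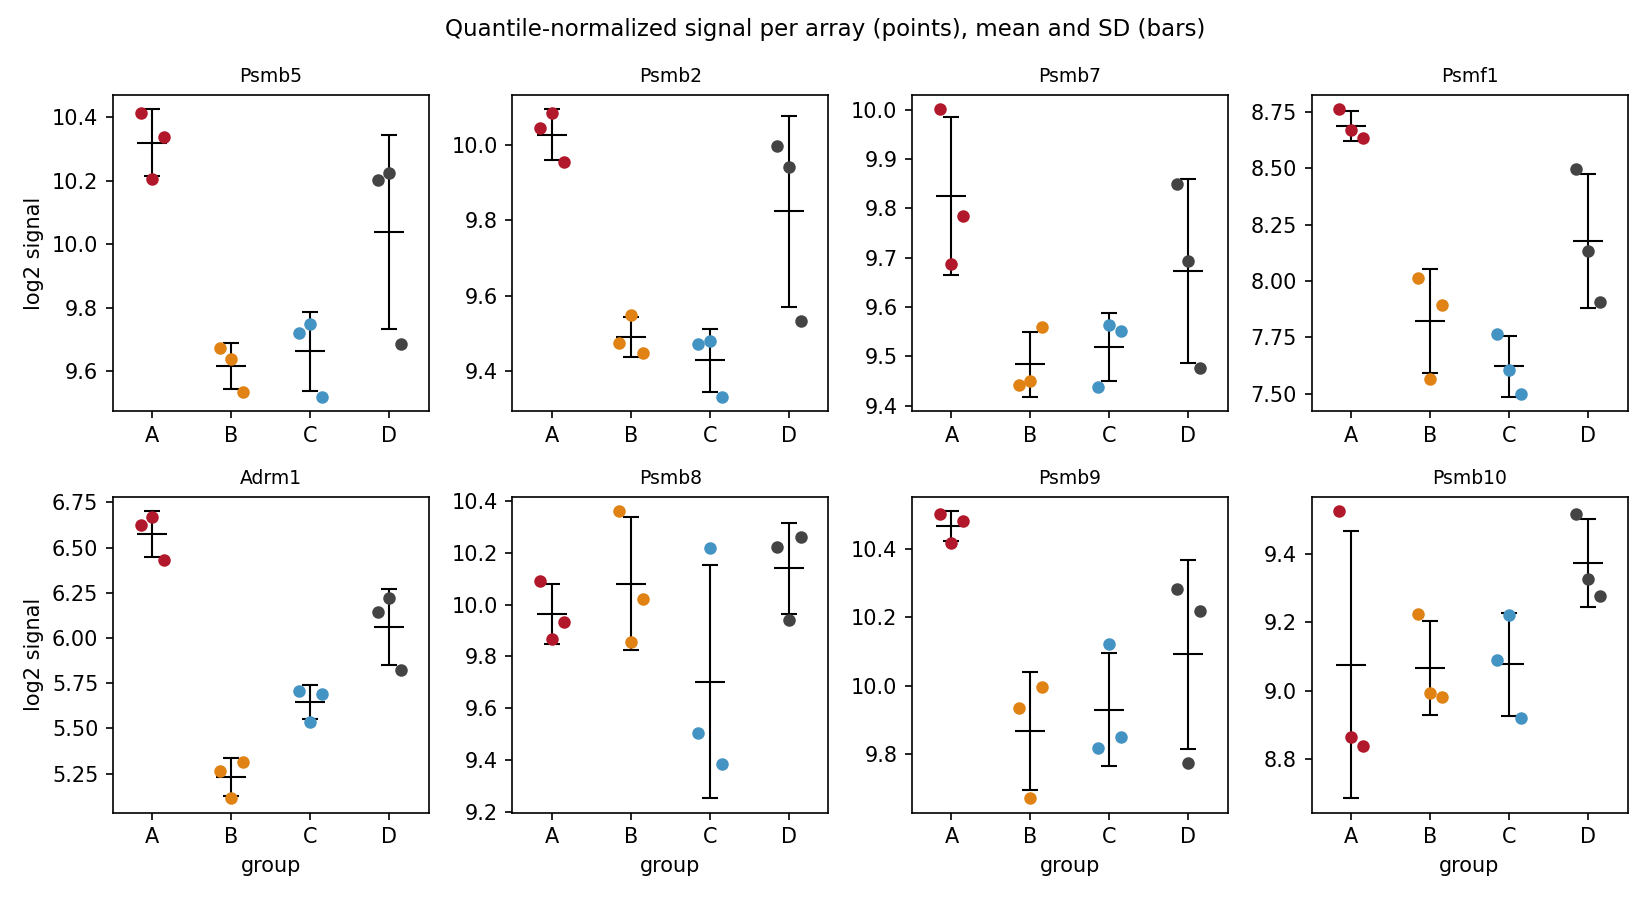
Log2 signal of cutting-site and related beta genes (Psmb5, Psmb2, Psmb7), the inhibitor Psmf1, the ubiquitin receptor Adrm1 and the immunoproteasome genes (Psmb8, Psmb9, Psmb10), with 1 point per array, groups A to D on the horizontal axis, and mean and SD as bars. Group A is above groups B and C for all but Psmb8 and Psmb10, and group D replicate 3 lies with groups B and C for Psmb5 (9.68), Psmb2 (9.53) and Psmb7 (9.48).

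Averaged over the 43 proteasome genes outside the immunoproteasome, each centred on its mean, the arrays of group A were the lowest at -0.09, -0.30 and -0.24. Those of group B were at 0.03, -0.02 and 0.05, those of group C at 0.03, 0.05 and -0.04, and those of group D at 0.30, 0.26 and -0.03. The last value is again replicate 3, which lay among groups B and C. The hexokinase ratio was highest in group A replicate 2, at 4.96, which also had the lowest average of proteasome genes. The Gapdh ratio was highest in that array too, at 1.53, while the beta-actin ratio was highest in group D replicate 3, at 1.91. The part of these ratios in the differences was not tested. Marker genes of other cells differed between groups A and D as well, in counts to be read against the 12.0% of all genes that were lower and the 16.0% that were higher. Of the 5 measured myeloid markers 4 were higher in group A than in group D, with a summed linear signal of 1336 to 1628 in group A and 587.5 to 1182 in group D. Of the 5 plasma cell markers 3 were higher, with sums of 2081 to 2215 in group A and 1146 to 1745 in group D. Of the 11 measured lymphocyte and lymph node markers 3 were lower, with sums of 10816 to 13230 in group A and 12163 to 14901 in group D. Smooth muscle and mesothelium markers were lower, 3 of 6 and 3 of 4, with sums of 1517 to 1664 and 115.2 to 131.7 in group A, and 956.7 to 6927 and 418.6 to 531.9 in group D. Of the 5 adipocyte markers 1 was lower, and of 3 measured erythroid markers 1 was lower and 1 higher. Their part in the proteasome differences was not tested.

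**Figure D5:**
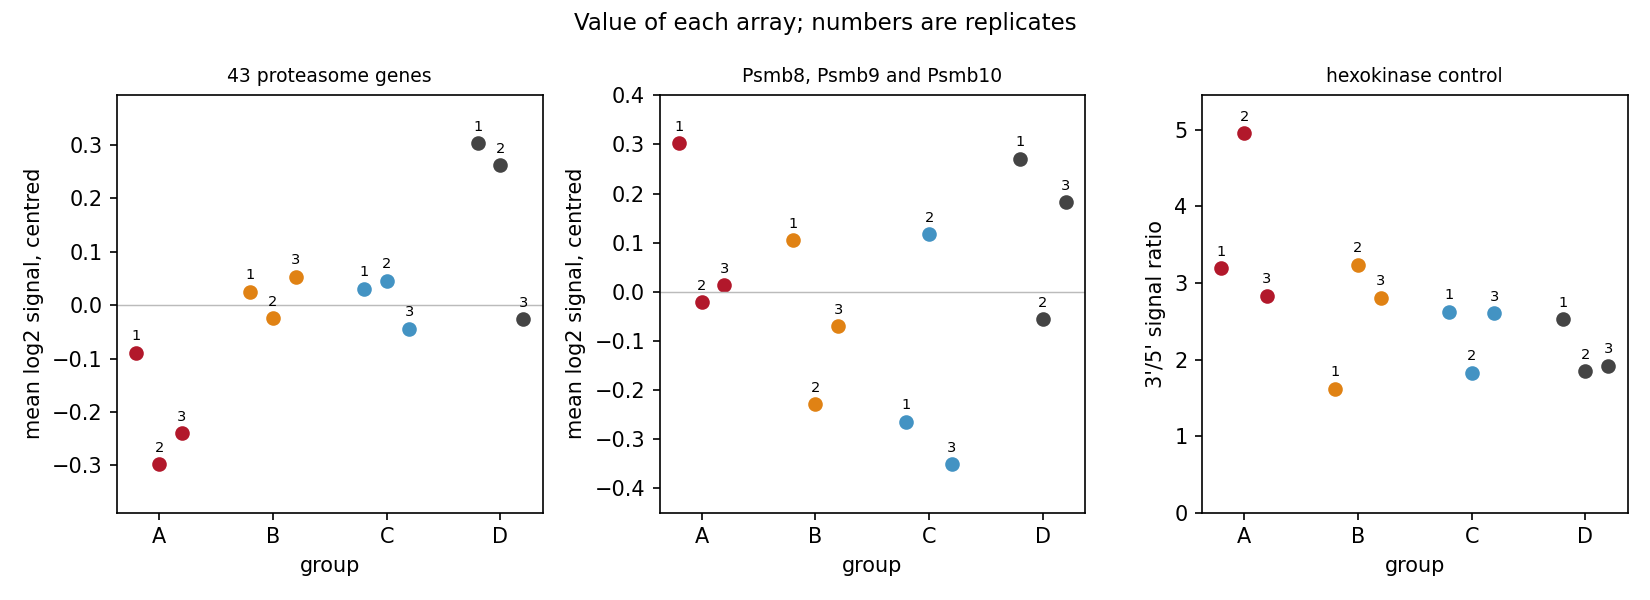
Value of each array by group, with replicate numbers beside the points: the average of 43 proteasome genes, that of Psmb8, Psmb9 and Psmb10 (both log2, each gene centred on its mean), and the 3' to 5' signal ratio of the hexokinase control. Group A is lowest in the first panel (-0.09 to -0.30), with no such order in the second, and group A replicate 2 has the highest ratio (4.96).

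Factors that work with the proteasome but fall outside the symbols used were also divided. Of 25 genes listed 21 were measured, of which 7 were lower and 4 higher in group A than in group D, where 12.0% and 16.0% of all genes were, so that the 4 higher genes lay near the share of all genes. Their median log2 difference was -0.09, against 0.15 over all genes. The unfolding ATPase Vcp, which hands ubiquitinated proteins to the proteasome, was lower at -1.25 (adjusted p = 0.000156), and so was Ecpas, a proteasome adaptor, at -1.27 (adjusted p = 0.000415). Both deubiquitinases that bind the cap were lower, Usp14 at -0.70 (adjusted p = 0.00107) and Uchl5, which Adrm1 anchors, at -0.91 (adjusted p = 0.00238). Nfe2l2, a transcription factor of the antioxidant response, was lower at -1.02 (adjusted p = 5.2e-05), whereas Nfe2l1, which drives proteasome genes when proteasome activity falls short, had 0.17 (adjusted p = 0.538). Ddi2, the protease that activates Nfe2l1, was lower at -0.79 (adjusted p = 0.0058), and the downstream peptidase Tpp2 at -1.17 (adjusted p = 0.0049). The higher ones were Nploc4, a cofactor of Vcp, at 0.82 (adjusted p = 0.0045), the small cap subunit Sem1 at 0.38 (adjusted p = 0.0195), and the ubiquitin shuttles Ubqln2 and Ubqln4 at 0.65 and 0.54. Against groups B and C, 8 of the 21 were lower and 5 higher in group A, where 16.9% and 31.6% of all genes were.

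Genes of the interferon gamma response and of peptide supply for class I molecules were measured for 16 of 17 listed, with 3 lower and 4 higher in group A than in group D. As 12.0% and 16.0% of all genes were called in these directions, both counts were not far from the share of all genes, and the values that follow describe single genes. The median log2 difference was 0.15, the same as over all genes. The higher ones were the peptide transporter genes Tap1 at 0.53 (adjusted p = 0.0342) and Tap2 at 0.90 (adjusted p = 0.00814), the receptor chain Ifngr2 at 0.81 (adjusted p = 0.0017) and the transcription factor Irf2 at 1.04 (adjusted p = 0.000334). The lower ones were Gbp2, a guanylate-binding protein induced by interferon, at -1.82 (adjusted p = 3.7e-05), Erap1, which trims peptides in the endoplasmic reticulum, at -0.88 (adjusted p = 0.00132), and the peptide-loading chaperone Pdia3 at -0.63 (adjusted p = 0.000389). Irf1 had 0.06 and B2m, the light chain of class I molecules, -0.02, neither past the test. In groups B and C 0 of these genes passed the test against group D in either direction.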

How the data were processed

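The authors extracted total RNA of 1 mesenteric lymph node sample per pup and deposited, per the labels, linear MAS5 signal intensity of 31099 probe sets in 12 arrays, without scaling between arrays. The version of MAS5 was not given. Here 57 control probe sets were left out after normalization, and 30 zeros took the smallest positive value. The log2 values were quantile normalized, with a floor at a linear intensity of 1. Of 31042 probe sets tested, 20826 had 1 symbol, 436 several and 9780 none, and probe sets with several name no gene. The brightest probe set stood for each gene. All arrays were fitted in limma 3.58.1 (R 4.3.3) with 1 mean per group and a trend of the variance, two-sided, with Benjamini-Hochberg adjustment over all probe sets in each comparison. A call is an adjusted p under 0.05, and intervals are at 95%. The comparisons were groups A, B and C against group D, which share its arrays, group A against groups B and C, and group B against group C. Those of group A share its arrays too. As a check of the code, the fit was run on simulated data with independent noise and no general shift between groups. Unlike the real arrays in this, such data leave the error rates on the real arrays untested. The number of arrays limits the precision, and an exact permutation test of 3 arrays against 3 could not go below a p of 0.1.

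Array values were given for the immunoproteasome and cutting-site genes, the activators, Pomp, Adrm1, and in each comparison up to 8 called members with the smallest adjusted p and no overlap. For these called members the lack of overlap is no separate result, and the share of all genes without overlap was not counted. Other members are given by role, and members whose probe sets disagree by probe set, with those below background on some or all arrays treated in brief. The members, roles and gene lists were chosen with earlier results of these data known, so they are not independent evidence. No thymus marker was measured on a probe set with 1 symbol. Promoters came from RefSeq tables of GRCr8, and were matched to members by gene identifier.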

Additional observations from a re-analysis of the deposited data

Results flagged for a closer look

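For 28 members the change relative to group D in group A differed from that in groups B and C, by the test of the difference itself (limma, adjusted p under 0.05). As the means of group D cancel, this is the log2 difference of group A from groups B and C. It was negative for 15 members (31.2%, against 16.9% of all genes), at -2.19 for Psme4, -2.00 for Psma1, -1.80 for Psmd6, -1.57 for Psma4, -1.30 for Psmc6, -1.18 for Psmd5, -1.04 for Psmc1, -0.95 for Psma2, -0.85 for Psma5, -0.84 for Psmd14, -0.79 for Psmc2, -0.68 for Psmd1, -0.63 for Psmd12, -0.61 for Psmc5 and -0.49 for Psmd4. It was positive for 13 (27.1%, below the 31.6% of all genes), at 0.32 for Psmb7, 0.33 for Psme2, 0.36 for Psme3ip1, 0.39 for Psmc3, 0.57 for Psmb9, 0.57 for Psmb2, 0.68 for Psmb5, 0.77 for Psmd8, 0.86 for Psmd9, 0.94 for Psmd3, 0.95 for Psmg4, 0.96 for Psmf1 and 1.14 for Adrm1. The median over all genes was 0.32. The highest adjusted p was 0.0395 among the negative members (Psmd4) and 0.0474 among the positive ones (Psme3ip1).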

How the results depend on the processing

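The 16 lower members of group A against group D became 12 without scaling between arrays and 7 at an unadjusted p under 0.05 with at least 2-fold, and 13 to 18 with 1 array left out. Of these, Psma1, Psma2, Psma4, Psma5, Psmc1, Psmc2, Psmc5, Psmd1, Psmd5, Psmd6 and Psme4 were called in 20 of 20 alternatives other than the 2-fold rule. Psmd14 was called in 19 (lost without scaling), Psmc6 in 18 (lost in a fit of groups A and D only and with the mean of all probe sets), Psmd12 in 14, Psmd4 in 13 and Psmb1 in 5. The 1 higher member became 0 without scaling, without the variance trend, in a fit of groups A and D only and at 2-fold, 4 with centring on the 75th percentile, 4 without the dimmest 40% of probe sets, 3 with the mean of all probe sets of a gene, and 0 to 3 with 1 array left out. The median for group A against group D ranged from -0.31 (without group D replicate 3) to -0.12 with 1 array left out, and was -0.10 when centred on the 75th percentile. Without scaling, group B against group D had a median of -0.80, group C had 40 lower members (4971 of 14217 genes were lower) and a median of -0.93, where the medians of all genes were -0.65 and -0.80. Group A against groups B and C then had 6 lower and 22 higher (1003 and 5773 of all genes) and a median of 0.65, and differences turned for Psme1 (0.72), Psmb4 (0.69), Psma7 (0.65) and Psmd4 (0.037). That of Psme1 also turned with the mean of all probe sets (0.77). This median was 0.24 when centred on the 75th percentile, and at an unadjusted p with 2-fold there were 7 lower and 1 higher. The cause was not tested. With 1 array left out, group B against group D had 0 to 13 lower and 0 to 1 higher, group C 0 to 12 and 0 to 2 with a median of -0.33 to -0.12, with the highest counts and the lowest median without group D replicate 3, and group A against groups B and C had 12 to 17 lower and 9 to 14 higher. Same-numbered arrays did not deviate together (r from -0.02 to 0.08 in 18 pairs). With the replicate block, 16 members were lower and 2 higher in group A against group D, and the counts of the other comparisons did not move. Leaving out Psmc3ip and Psme3ip1, chosen after seeing the data, left 16 lower and 1 higher. Signals near background limit the dimmer probe sets.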
